A study of Rattus norvegicus with 18 samples.

Results

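The livers of 6 rats with NASH and cirrhosis (NASH-CH) were compared with the livers of 6 control rats, which made 12 of the 18 RNA-seq libraries of the series, with 1 library per rat. The rats were taken by the group given in the sample labels, and the rats of the earlier NASH stage were left out of the comparison. All were male Wistar rats. Control rats had standard chow and plain water for 12 weeks. NASH-CH rats inhaled carbon tetrachloride (CCl4) and drank water with phenobarbital for 24 weeks, and in the last 16 of these weeks they also ate a high-fat and high-cholesterol diet (HFCD). The toxin, the drug, the diet and the longer time on protocol thus differed together between the groups and cannot be told apart. The sources used here name different RNA isolation kits for these samples, RNAqueous-Micro in the labels and miRNeasy in the methods.

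CCl4 is turned into a reactive radical by hepatocyte cytochrome P450 enzymes, mainly Cyp2e1 and the phenobarbital-inducible Cyp2b forms, and it kills the hepatocytes that carry these enzymes. Repeated injury turns hepatic stellate cells, the vitamin A-storing pericytes of the liver, into matrix-secreting myofibroblasts, while resident macrophages (Kupffer cells) are partly replaced by cells from circulating monocytes. A diet rich in cholesterol and fat lowers the activity of SREBP2, the transcription factor that drives cholesterol synthesis, and loads hepatocytes with lipid droplets.

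Gene levels are given in CPM, read counts relative to the library total after TMM scaling, as the lowest, median and highest of a group's 6 rats. Log2 fold changes are from NASH-CH against control with the standard error (SE) of the fit, and the adjusted p is that of limma-voom with the Benjamini-Hochberg method over 12941 genes. A gene is said to have risen or fallen where this adjusted p was under 0.05, and the groups are said not to overlap where every rat of one lay above every rat of the other. Genes named as largest rises or falls were taken only from genes without overlap, so for them this adds no support. Changes are in RNA from whole liver, where fewer cells of a type and less RNA per cell cannot be told apart.

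The libraries were those of liver in all 12 rats. 24 of 24 hepatocyte genes could be tested, and Alb, which encodes serum albumin, lay at 88820 to 127100 CPM (median 99020) in control rats and at 41050 to 89380 CPM (median 71370) in NASH-CH rats. Depth followed the group, with 19498534 to 27174015 counts per control rat and 44680344 to 60117822 per NASH-CH rat, a ratio of means of 2.07 (exact permutation test, two-sided p = 0.00216, the smallest that 6 rats against 6 allow). Small non-coding RNA genes took 1.02% ± 0.225 (SD, n = 6) of the counts in control rats and 0.565% ± 0.0943 in NASH-CH rats (exact permutation test, two-sided p = 0.00216). These shares leave out SRP RNA among others, and the much larger shares with these RNAs added are given in the next paragraph. The first principal component of log2 CPM held 36.9% of the variance and the second 13.8%, and NASH-CH rat 5 stood apart from the other 11 rats on the second, with a score of 54.4 against −25.4 to 29.6 for the others.

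Expression differed widely between the groups. Of 12941 genes tested, 1408 (10.9%) passed the threshold, of which 665 (5.14%) were higher and 743 (5.74%) were lower in NASH-CH rats, and 928 genes (7.17%) had groups that did not overlap. The log2 fold change was at least 1 for 280 of the higher genes and at most −1 for 285 of the lower genes, and its median over all genes was 0.016. The balance of higher and lower genes rested on the scaling: with scaling by library size alone 1537 genes were higher and 366 were lower, and the median of all genes moved to 0.27. Of 179 small non-coding RNA genes tested (7SK and SRP RNA included), 161 were lower and 0 were higher by limma-voom. Those that were lower made up 21.7% of all lower genes. The small RNA share of counts was lower in every NASH-CH rat than in every control rat, with or without 7SK and SRP RNA. With 7SK and SRP RNA added, the mean share was 18.87% in control rats (16.08% to 22.35%) and 12.06% in NASH-CH rats (11.09% to 13.14%). DESeq2 called 2380 genes on the same counts. Without NASH-CH rat 5 there were 1533. Among the 12 fits that left out 1 rat the number called was smallest without control rat 4, with 882 genes, and largest without control rat 6, with 1616. Of 46 counts of 1 or 2 called genes in the gene lists that follow, 23 were at 0 in at least 1 of these fits. Other counts in a list are given with their range where they moved by over 1.5 times (or, from 2 or fewer, by 3 or more) in these fits or by library size alone.

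The length of the gene also moved with the result. Gene spans were taken from the GRCr8 annotation, and 11792 of the tested genes could be matched. In the decile with the shortest spans the median log2 fold change was −0.17, with 2.03% of genes higher and 11.7% lower. In the decile with the longest spans it was 0.24, with 12.9% higher and 1.27% lower. The part of depth and of the small RNA share in this gradient was not tested, and the spans are given again beside the gene groups that are made of short genes.

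**Figure D1:**
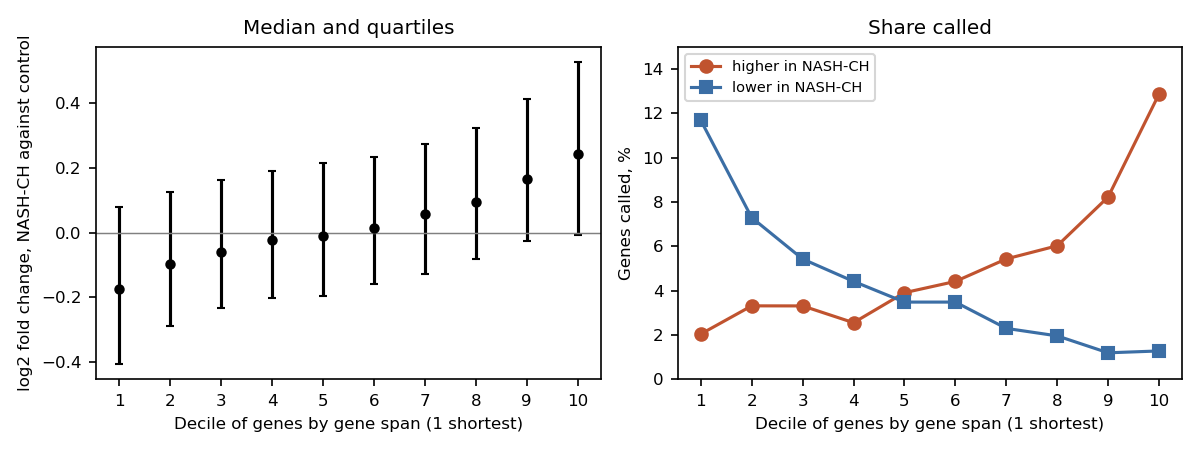
Log2 fold change of NASH-CH against control rats (left, median as point and quartiles as bars) and share of genes called (right, in %) in 10 equal groups of genes ordered by gene span in the GRCr8 annotation. The median rises from −0.17 in the shortest decile to 0.24 in the longest, while the share called lower drops from 11.7% to 1.27%.

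Large rises were seen in genes of drug-metabolising enzymes. Cyp2b2, the textbook target of phenobarbital through the receptor CAR, ranged from 6.43 to 45.6 CPM (median 35.4) in control rats and from 547 to 1028 CPM (median 979) in NASH-CH rats (log2 fold change 4.96, SE 0.48, adjusted p = 2.09e-05). Even the lowest NASH-CH rat was more than 10 times above the highest control rat. Ces2c, a carboxylesterase of the endoplasmic reticulum, was at 4.78 to 10.2 CPM (median 8.08) against 56.8 to 83.9 CPM (median 70.5) (log2 fold change 3.22, SE 0.18, adjusted p = 3.16e-07), again with no overlap. Of 23 genes listed for phenobarbital and CAR that were tested, 10 rose and 0 fell, which is 43.5% called, with a median log2 fold change of 0.52. Without NASH-CH rat 5, 11 rose. The other risers in this list were Abcc3, Cyp2c6v1, Aldh1a1, Gadd45b, Ephx1, Cyp3a2, Cyp3a23/3a1 and Abcb1a, with log2 fold changes of 2.96, 2.14, 2.10, 1.45, 1.31, 1.24, 1.29 and 1.11. Ephx1 is the microsomal epoxide hydrolase, Aldh1a1 oxidises retinal to retinoic acid and Abcb1a exports drugs. Nr1i3, which encodes CAR itself, had a log2 fold change of −0.87 (adjusted p = 0.0548). The call on Abcc3 was lost in 6 of the 12 fits that left out 1 rat (adjusted p of up to 0.0743).

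Abcc3, an exporter of conjugated bile acids and drugs at the basolateral membrane, did not move alike in all rats. Its level ranged from 1.23 to 2.10 CPM (median 1.66) in control rats and from 6.25 to 46.5 CPM (median 6.98) in NASH-CH rats (log2 fold change 2.96, SE 0.82, adjusted p = 0.0347). The groups did not overlap, but the 2 highest rats, NASH-CH 5 and 6, stood at 46.5 and 43.8 CPM and the other 4 between 6.25 and 7.32.

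Some genes of phase II enzymes passed. Of 31 conjugation genes tested, 5 rose and 2 fell. Ugt2b10, which attaches glucuronic acid, was at 102 to 205 CPM (median 123) in control rats and at 484 to 723 CPM (median 682) in NASH-CH rats (log2 fold change 2.28, SE 0.18, adjusted p = 3.63e-06). Groups did not overlap for it. The glutathione transferase genes Gstt3, Gsta5 and Gstm7 rose, with log2 fold changes of 0.92, 0.85 and 0.68, while Gsta1 fell (−0.67) and so did the glucuronosyltransferase Ugt2a1 (−0.67). Gstm3 rose most (log2 fold change 4.47, SE 1.22, adjusted p = 0.0327), from 0.0814 to 1.90 CPM in control rats. Members of the Cyp2b, Cyp2c, Cyp3a, Ces2, Gst and Ugt2b families have near-identical copies in the rat genome, so that how reads were divided between copies may enter each of these values. Of the conjugation genes, 3 to 8 rose and 0 to 3 fell with 1 rat left out (3 rose without control rats 3, 4, 5 or 6 and 8 rose without NASH-CH rat 4), and 12 rose and 0 fell by library size alone. Leaving out each rat in turn, the calls on Gstm7, Gsta1, Ugt2a1 and Gstm3 were lost in 8, 9, 7 and 7 of the 12 fits, with adjusted p of up to 0.0986. Scaled by library size alone, Gsta1 and Ugt2a1 were no longer called.

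Some genes of the sex-dependent P450 families passed, 13.6% against 10.9% of all genes. Of 22 genes listed for the Cyp2c, Cyp2d and sex-dependent families, 2 rose and 1 fell, and both risers, Cyp2c6v1 and Cyp3a2, are also in the phenobarbital list. Cyp2c11, the main P450 of the male rat liver, was at 783 to 1981 CPM (median 1784) in control rats and at 286 to 2596 CPM (median 1974) in NASH-CH rats (log2 fold change −0.063, adjusted p = 0.940). Its sign turned in 6 of the alternatives, and the lowest NASH-CH rat was rat 5, which had the highest level of the female-specific Cyp2c12, 106 CPM against 4.46 to 17.7 in control rats. Cyp2d4 fell (log2 fold change −0.79, SE 0.21, adjusted p = 0.0284). Among targets of NRF2, the sensor of electrophilic stress, 2 of 26 rose (Ephx1 and the aldehyde oxidase Aox1, with log2 fold changes of 1.31 and 0.79) and 1 fell (malic enzyme, Me1, at −1.10). The share of NRF2 targets called was 11.54%, near the 10.9% of all genes. Nqo1, the most used reporter of this pathway, had a log2 fold change of 0.70 (adjusted p = 0.401). Cyp2d4 and Me1 were no longer called in 4 and 7 of the 12 fits that left out 1 rat, with adjusted p of up to 0.0775. When counts were scaled by library size alone, Cyp2d4 and Me1 were not called.

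Genes of the zone around the central vein, where CCl4 is activated, were divided. Of 18 tested, 3 rose and 2 fell. Glul, the glutamine synthetase confined to the innermost ring of hepatocytes, ranged from 223 to 436 CPM (median 273) in control rats and from 83.3 to 193 CPM (median 138) in NASH-CH rats (log2 fold change −1.13, SE 0.20, adjusted p = 0.00400). The groups were apart. Lect2, a secreted target of the Wnt signal in the same zone, fell as well (log2 fold change −0.68, SE 0.13, adjusted p = 0.00479). Aldh1a1 rose, as given above, and so did the aryl hydrocarbon receptor Ahr (0.50). Cyp2e1, the enzyme that activates CCl4, rose (log2 fold change 0.98, SE 0.28, adjusted p = 0.0404), though by edgeR it was not called. Of the genes of the central zone, 1 to 4 rose and 2 to 3 fell with 1 rat left out (1 rose without control rats 1, 2, 3 or 4 or NASH-CH rats 2, 3 or 4), and 5 rose and 2 fell by library size alone. Ahr and Cyp2e1 were no longer called in 9 and 10 of the 12 fits that left out 1 rat, with adjusted p of up to 0.0927.

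**Figure D2:**
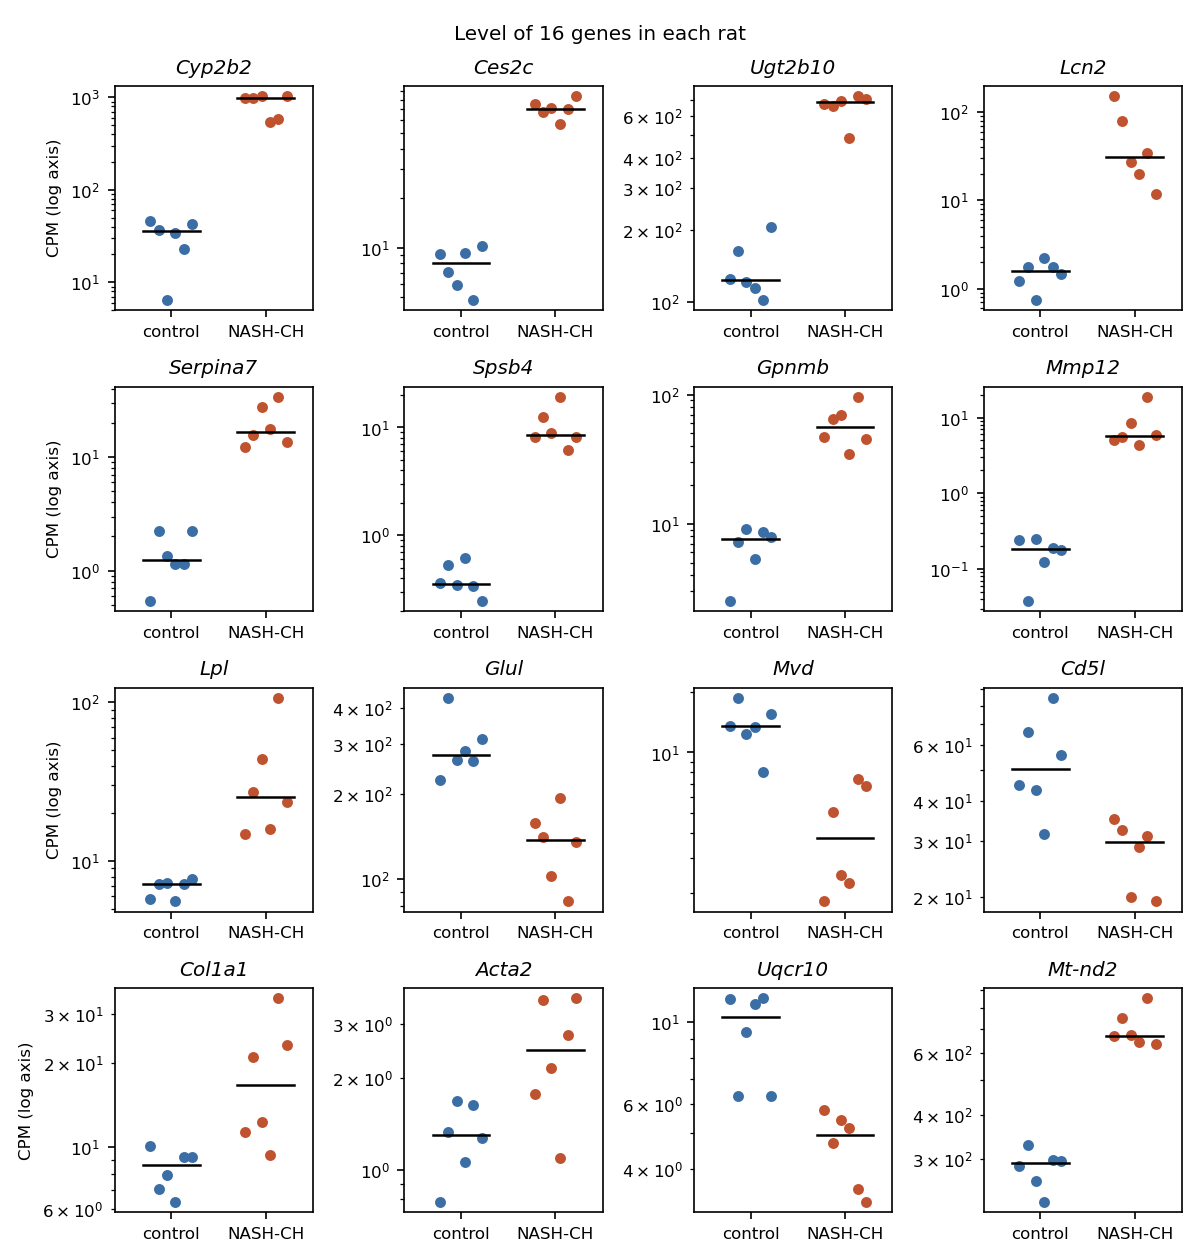
Level of 16 genes in CPM on log axes, with 1 point per rat (6 control rats in blue, 6 NASH-CH rats in orange) and the group median as a line. The groups overlap for Cd5l, Col1a1 and Acta2 and for none of the other 13 genes. Genes named as largest rises or falls were taken only from genes without overlap, so this count is no result. Of all genes tested, 7.17% had groups that did not overlap.

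Beside the enzymes, genes of other kinds rose by a large factor. Lcn2, the iron-carrier-binding lipocalin made by neutrophils and injured epithelium, ranged from 0.743 to 2.24 CPM (median 1.60) in control rats and from 11.9 to 152 CPM (median 31.1) in NASH-CH rats (log2 fold change 4.66, SE 0.78, adjusted p = 0.00212). The groups did not overlap, and the NASH-CH rats spread over more than 10-fold. Serpina7, the thyroxine-binding globulin, was at 0.542 to 2.25 CPM (median 1.24) against 12.3 to 34.0 CPM (median 16.7) (log2 fold change 3.74, SE 0.42, adjusted p = 7.02e-05). Spsb4, which encodes an adaptor of a ubiquitin ligase, was at 0.247 to 0.611 CPM (median 0.354) against 6.17 to 19.2 CPM (median 8.52) (log2 fold change 4.56, SE 0.52, adjusted p = 9.12e-05). Neither of these genes had overlapping groups. A2m, the acute-phase α2-macroglobulin, rose as well (log2 fold change 3.09, SE 0.45, adjusted p = 6.72e-04), as did Adamtsl2, which binds the latent TGFβ complex (log2 fold change 2.39, SE 0.26, adjusted p = 6.71e-05).

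Chchd2 was at 0.0814 to 19.3 CPM (median 0.674) in control rats and at 28.6 to 60.1 CPM (median 39.7) in NASH-CH rats (log2 fold change 6.08, SE 0.82, adjusted p = 3.91e-04). The groups did not overlap, but 1 control rat stood at 19.3 CPM and the other 5 at 1.41 CPM or less. The gene has processed copies in the rat genome, so that its value is uncertain.

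Several single genes fell by a large factor. Aacs, which activates acetoacetate for lipid synthesis, ranged from 4.48 to 19.3 CPM (median 9.01) in control rats and from 0.686 to 2.29 CPM (median 0.937) in NASH-CH rats (log2 fold change −3.06, SE 0.42, adjusted p = 4.32e-04). Groups did not overlap. Csad, the enzyme that makes hypotaurine from cysteine sulfinate, fell (log2 fold change −1.80, SE 0.28, adjusted p = 0.00112), and so did Hao2, a peroxisomal hydroxy acid oxidase (log2 fold change −1.30, SE 0.29, adjusted p = 0.0116), Crym, which binds thyroid hormone in the cytosol (log2 fold change −1.52, SE 0.24, adjusted p = 0.00129), Slc39a4, a zinc importer (log2 fold change −1.30, SE 0.23, adjusted p = 0.00301), and Enpep, the aminopeptidase of angiotensin II (log2 fold change −1.39, SE 0.22, adjusted p = 0.00123). Csad overlapped in 1 NASH-CH rat, and the other 4 had groups without overlap. Cela1, an elastase, was at 21.8 to 32.5 CPM (median 28.7) in control rats and at 6.24 to 20.8 CPM (median 7.36) in NASH-CH rats (log2 fold change −1.72, SE 0.25, adjusted p = 7.28e-04), and was the 1 gene of the pancreas and gut list that could be tested.

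Some extracellular matrix genes rose in NASH-CH rats. Of 7 fibrillar collagen genes tested, 2 rose and 0 fell, with a median log2 fold change of 0.26, and 0 to 2 rose with 1 rat left out. Col1a1, the main chain of collagen I, was at 6.35 to 10.1 CPM (median 8.60) in control rats and at 9.39 to 34.1 CPM (median 16.7) in NASH-CH rats (log2 fold change 1.03, SE 0.30, adjusted p = 0.0426). The groups overlapped in 1 NASH-CH rat, NASH-CH 4 at 9.39 CPM. Col3a1 was at 209 to 291 CPM (median 219) against 212 to 321 CPM (median 282), a log2 fold change of 0.22 (adjusted p = 0.314). Col11a1, a minor chain of cartilage-type fibrils, rose to 0.294 to 2.01 CPM (median 0.518) from no more than 0.120 CPM (log2 fold change 3.43, SE 0.74, adjusted p = 0.0106). Col11a1 passed the count filter in 7 of the 12 fits that left out 1 rat and kept its call in these. The call on Col1a1 was lost in 8 of the 12 fits that left out 1 rat (adjusted p of up to 0.0960).

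Among non-fibrillar collagens, of 13 tested, 9 rose and 1 fell, which is 76.9% called, with a median of 0.81. Without NASH-CH rat 5, 7 of 11 tested rose. Col15a1, a collagen of vascular basement membranes that capillarised sinusoids acquire, was at 0 to 0.301 CPM (median 0.164) in control rats and at 0.666 to 2.07 CPM (median 1.09) in NASH-CH rats (log2 fold change 3.55, SE 0.66, adjusted p = 0.00445). Col8a2 was at 0.301 to 0.733 CPM (median 0.586) against 1.44 to 5.88 CPM (median 2.57) (log2 fold change 2.23, SE 0.53, adjusted p = 0.0171). Neither had overlapping groups, and both were low in control rats. The 3 chains of collagen VI, the beaded filament around cells, rose with log2 fold changes of 0.74 for Col6a1, 1.04 for Col6a2 and 0.90 for Col6a3. Col8a1, Col10a1, Col12a1 and Col16a1 rose between 0.56 and 1.07, and Col22a1 fell (log2 fold change −1.69, SE 0.43, adjusted p = 0.0233). Of the non-fibrillar collagen genes, 5 to 8 rose and 0 to 1 fell with 1 rat left out (5 rose without control rat 4 or NASH-CH rats 2, 3 or 6), and 9 rose and 1 fell by library size alone. Col10a1 passed the count filter in 6 of the 12 fits that left out 1 rat and lost its call in 2 of these (adjusted p of up to 0.0632). Col22a1 passed the count filter in 6 of the 12 fits that left out 1 rat and lost its call in 3 of these (adjusted p of up to 0.0590). Col12a1, Col16a1 and Col8a1 were no longer called in 7, 9 and 8 of the 12 fits that left out 1 rat, with adjusted p of up to 0.114.

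Basement membrane genes rose in 4 of 22 cases and fell in 0. Among those that rose, Smoc2, a calcium-binding matricellular protein, Npnt, a ligand of integrin α8, and Nid1, which links laminin to collagen IV, had log2 fold changes of 1.97, 1.22 and 0.52. The collagen IV chains Col4a1 and Col4a2 had log2 fold changes of 0.40 and 0.37 (adjusted p = 0.169 and 0.146). Of the basement membrane genes, 1 to 4 rose and 0 to 1 fell with 1 rat left out (1 rose without control rats 1 or 4 or NASH-CH rat 6), and 6 rose and 0 fell by library size alone. Leaving out each rat in turn, the calls on Npnt and Nid1 were lost in 9 and 4 of the 12 fits, with adjusted p of up to 0.105.

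Elastic fibre and proteoglycan genes rose in 9 of 26 cases and fell in 0, with a median of 0.64, and without NASH-CH rat 5 the rises numbered 8 of 23 tested. Fbln1, a fibulin of elastic fibres, was at 0.977 to 1.66 CPM (median 1.24) in control rats and at 3.19 to 14.9 CPM (median 5.65) in NASH-CH rats (log2 fold change 2.26, SE 0.53, adjusted p = 0.0157). Thbs1, which releases active TGFβ from its latent complex, was at 7.13 to 25.0 CPM (median 14.5) against 27.8 to 76.9 CPM (median 43.5) (log2 fold change 1.72, SE 0.29, adjusted p = 0.00223). Both pairs of groups were apart. The hyaluronan-binding Vcan, the TGFβ-anchoring Ltbp1, the small proteoglycans Bgn, Aspn and Prelp, and Thbs2 rose with log2 fold changes of 1.80, 1.26, 1.22, 3.67, 0.55 and 0.95. Elastin itself, Eln, had a log2 difference of 0.25 (adjusted p = 0.483) and fibronectin, Fn1, one of 0.34 (adjusted p = 0.408). Aspn passed the count filter in 7 of the 12 fits that left out 1 rat and lost its call in 3 of these (adjusted p of up to 0.0737).

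Some genes of matrix-degrading enzymes rose as well. Of 14 metalloproteinases and inhibitors tested, 5 rose and 0 fell. Mmp2, the gelatinase of stellate cells, was at 5.59 to 8.74 CPM (median 6.46) in control rats and at 8.31 to 21.7 CPM (median 14.8) in NASH-CH rats (log2 fold change 1.06, SE 0.22, adjusted p = 0.00882). Here 5 of 6 NASH-CH rats were above every control rat and the others overlapped. The inhibitor Timp2 rose (0.85), as did Mmp23 (1.24) and the procollagen peptidase Adamts2 (1.08), and Timp1 had a log2 fold change of 0.61 (adjusted p = 0.279). Among 17 genes of collagen modification 2 rose, the lysyl hydroxylase Plod2 (log2 fold change 1.76, SE 0.49, adjusted p = 0.0347) and the procollagen C-proteinase enhancer Pcolce (log2 fold change 0.60, SE 0.17, adjusted p = 0.0368), and 0 fell. That is 11.8% called, near the 10.9% of all genes, and 0 to 2 rose with 1 rat left out. Of the metalloproteinase and inhibitor genes, 3 to 5 rose and 0 fell with 1 rat left out (3 rose without control rats 1, 3 or 4 or NASH-CH rats 2 or 6), and 6 rose and 0 fell by library size alone. Mmp23, Adamts2, Plod2 and Pcolce were no longer called in 8, 6, 7 and 9 of the 12 fits that left out 1 rat, with adjusted p of up to 0.0955.

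Genes of stellate cells and myofibroblasts rose in 9 of 27 cases and fell in 2, with 9 and 2 without NASH-CH rat 5. Cygb, a globin of stellate cells, was at 2.44 to 4.21 CPM (median 3.20) in control rats and at 6.04 to 17.9 CPM (median 8.71) in NASH-CH rats (log2 fold change 1.53, SE 0.30, adjusted p = 0.00616). Mgp, an inhibitor of calcification, was at 5.70 to 9.12 CPM (median 7.28) against 16.2 to 58.1 CPM (median 23.7) (log2 fold change 1.82, SE 0.30, adjusted p = 0.00175). Every NASH-CH rat stood above every control rat. Rgs5, a marker of pericytes, the actin-binding Tagln and Cnn2, the Axl ligand Gas6, desmin (Des) and the PDGF receptor Pdgfra rose with log2 fold changes of 1.88, 0.97, 0.67, 0.80, 0.65 and 0.54. Of the 2 genes that fell, Lrat esterifies retinol for storage (log2 fold change −0.68, SE 0.15, adjusted p = 0.0112). The other was Colec11, a collectin (log2 fold change −0.50, SE 0.14, adjusted p = 0.0397). Acta2, the smooth muscle actin used to stain myofibroblasts, was at 0.783 to 1.68 CPM (median 1.30) in control rats and at 1.10 to 3.64 CPM (median 2.46) in NASH-CH rats, a difference of 0.87 on the log2 scale (adjusted p = 0.124). Cnn2 and Colec11 were no longer called in 8 and 8 of the 12 fits that left out 1 rat, with adjusted p of up to 0.0924. Scaling by library size alone ended the call on Lrat and Colec11.

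A few genes of signals to stellate cells rose. The share called was 19.05% for TGFβ genes, 16.67% for PDGF and VEGF, 11.11% for integrins and 7.407% for Notch and Wnt. Of all genes tested, 10.9% were called. In the TGFβ pathway 4 of 21 genes rose and 0 fell. They included Thbs1, Ltbp1 and Ctgf, a matricellular target of TGFβ and YAP (log2 fold change 1.78, SE 0.47, adjusted p = 0.0274). In the PDGF and VEGF families 3 of 18 rose: the lymphatic growth factor Vegfd, at 0.106 to 0.335 CPM (median 0.263) in control rats and at 0.838 to 2.74 CPM (median 1.37) in NASH-CH rats (log2 fold change 2.69, SE 0.53, adjusted p = 0.00620), Pdgfc (0.96) and Pdgfra. For Vegfd the groups were apart. Integrin genes rose in 2 of 18 cases, Itga8 of myofibroblasts (log2 fold change 1.65, SE 0.38, adjusted p = 0.0157) and Itga9 (log2 fold change 0.52, SE 0.15, adjusted p = 0.0401). Of 27 Notch and Wnt genes 2 rose, both secreted modulators of Wnt, Sfrp1 (log2 fold change 1.99, SE 0.54, adjusted p = 0.0319) and Dkk3 (log2 fold change 1.39, SE 0.41, adjusted p = 0.0453), and 0 fell. Ctgf, Pdgfc, Itga9, Sfrp1 and Dkk3 were no longer called in 5, 6, 8, 5 and 9 of the 12 fits that left out 1 rat, with adjusted p of up to 0.0927.

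Proteins were stained or blotted in livers of these models, and 11 of the genes that encode them could be tested. Of these, 3 rose (Col1a1, Des and Vwf), 1 fell (Cd163), and the others did not pass. The calls on Col1a1 and Cd163 were lost in 8 and 9 of the 12 fits that left out 1 rat. For protein in NASH-CH livers, the paper reported more desmin, smooth muscle actin, collagen I and vWF. It also reported more macrophages stained for CD163 or CD68, and less CD32b (Fcgr2b). Further, it reported more CRBP1, cleaved caspase-3 and infiltrated neutrophils. For eNOS (Nos3) and moesin (Msn) it reported less and more of the phosphorylated form, which RNA does not measure. The Cd163 RNA, in CPM of whole liver, thus moved against the count of stained cells per field. Its call was also lost with the replicate block (limma-voom adjusted p = 0.0973) and with sample quality weights. For Nos3, Msn, Cd68 and Fcgr2b the log2 fold changes were 0.27, 0.13, 0.15 and −0.24 (adjusted p = 0.341, 0.567, 0.541 and 0.275). Myeloperoxidase, Mpo, was below the count filter, with 3 counts over the control rats and 37 over the NASH-CH rats.

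Macrophage genes split into those that fell and those that rose. Of 18 Kupffer cell genes tested, 0 rose and 5 fell, with a median log2 fold change of −0.40. Cd5l, a secreted scavenger protein of Kupffer cells, was at 31.5 to 84.7 CPM (median 50.5) in control rats and at 19.4 to 35.2 CPM (median 29.8) in NASH-CH rats (log2 fold change −0.93, SE 0.23, adjusted p = 0.0202). The groups overlapped, with 4 of 6 NASH-CH rats below every control rat. Marco, a scavenger receptor, was at 12.5 to 41.7 CPM (median 23.4) against 1.07 to 14.2 CPM (median 6.50) (log2 fold change −2.15, SE 0.54, adjusted p = 0.0217). Its groups overlapped, and the lowest level was that of NASH-CH rat 3. Csf1r, the receptor for the macrophage growth factor, the sialic acid-binding Siglec1 and the haemoglobin receptor Cd163 fell with log2 fold changes of −0.46, −0.60 and −0.48. Clec4f, the receptor by which rodent Kupffer cells are defined, had a log2 difference of −0.58 (adjusted p = 0.0577), and Vsig4 one of −0.56 (adjusted p = 0.0951). Of the Kupffer cell genes, 0 to 1 rose and 2 to 6 fell with 1 rat left out (2 fell without control rat 5), and 1 rose and 1 fell by library size alone. The call on Marco was lost without control rat 5 or without NASH-CH rat 6 (adjusted p of up to 0.0530). Leaving out each rat in turn, the calls on Siglec1 and Cd163 were lost in 7 and 9 of the 12 fits, with adjusted p of up to 0.106. Scaled by library size alone, Cd5l, Csf1r, Siglec1 and Cd163 were no longer called.

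Genes of the lipid-associated macrophages found in scar moved the other way, with 7 of 19 higher and 1 lower and a median of 0.87. Without NASH-CH rat 5, 7 were higher. Trem2, the lipid-sensing receptor that names these cells, had 1 count in all over the 6 control rats and 264 over the 6 NASH-CH rats, a ratio of 107 after scaling (95% interval 19 to 4240, exact, counting error only). The log2 fold change of the limma-voom fit, which is the effect tested, was 4.78 (adjusted p = 1.74e-05). Gpnmb, a lysosomal glycoprotein, was at 2.53 to 9.01 CPM (median 7.56) in control rats and at 34.5 to 95.8 CPM (median 55.8) in NASH-CH rats (log2 fold change 3.11, SE 0.30, adjusted p = 2.01e-05). Mmp12, the macrophage elastase, was at 0.0380 to 0.247 CPM (median 0.184) against 4.34 to 18.7 CPM (median 5.73) (log2 fold change 5.41, SE 0.86, adjusted p = 0.00145). None of these 3 genes overlapped between groups. Lpl, the lipoprotein lipase, Lyz2, lysozyme, and the galectins Lgals1 and Lgals3 rose with log2 fold changes of 2.10, 1.58, 1.18 and 0.85. Fabp5, a fatty acid-binding protein of macrophages and epithelia, fell (log2 fold change −1.20, SE 0.27, adjusted p = 0.0129). Spp1, osteopontin, and Cd9 had log2 fold changes of 0.87 and 0.89 (adjusted p = 0.115 and 0.281). Lgals1 and Lgals3 were no longer called in 8 and 9 of the 12 fits that left out 1 rat, with adjusted p of up to 0.0830.

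**Figure D3:**
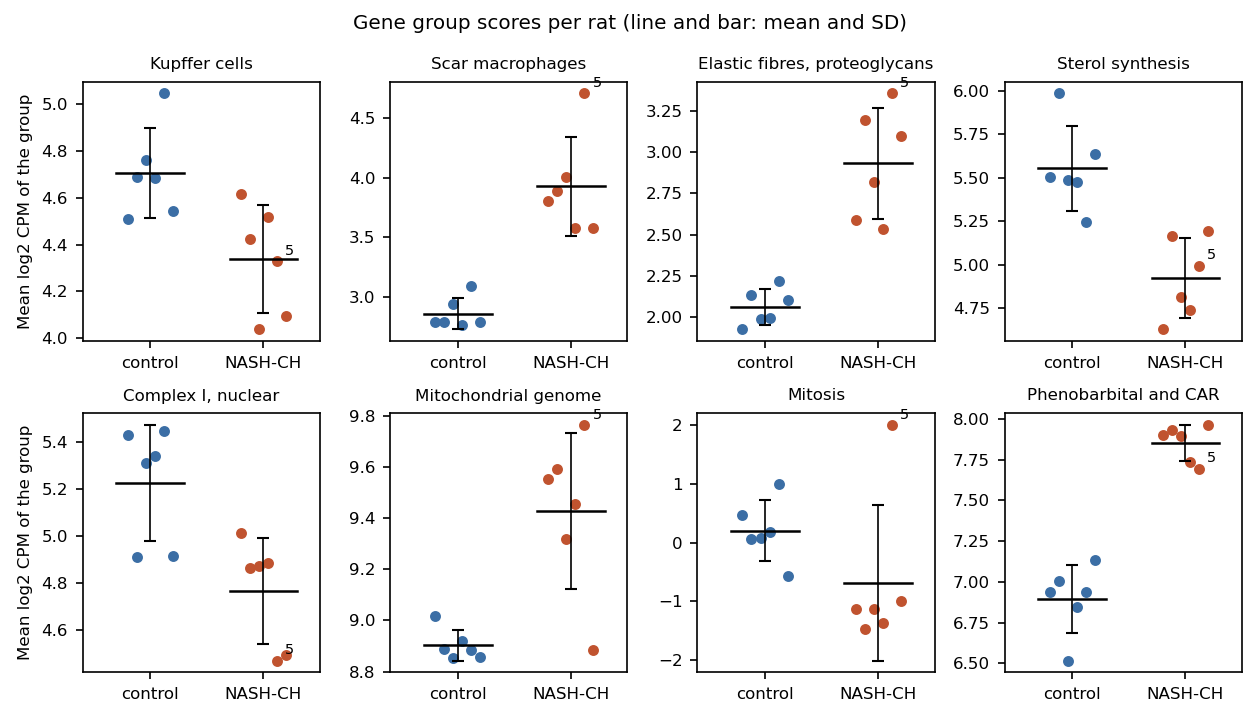
Mean log2 CPM of the tested genes of 8 groups, with 1 point per rat, the mean of each group of 6 rats as a line, its SD as a bar, and NASH-CH rat 5 marked. Rat 5 is the highest NASH-CH rat for scar macrophages, elastic fibres and proteoglycans, the mitochondrial genome and mitosis. It is the lowest for complex I and for phenobarbital and CAR. For mitosis it stands at 2.01 and the other NASH-CH rats lie between −1.48 and −1.0.

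Few genes of other leukocytes passed. Of 5 monocyte and neutrophil genes, Lcn2 and Lyz2 rose, while S100a9 had a log2 fold change of 1.19 (adjusted p = 0.336). Of 10 T and NK cell genes 0 rose and 2 fell, granzyme A, Gzma (log2 fold change −1.46, SE 0.30, adjusted p = 0.00824), and the chemokine Ccl5 (log2 fold change −1.01, SE 0.31, adjusted p = 0.0497). No gene passed among 6 of B and plasma cells (by limma-voom, with 1 at an unadjusted p under 0.05, and 0 called by edgeR and 1 by DESeq2) or 10 of MHC class II (by limma-voom, with 1 at an unadjusted p under 0.05, and 0 called by edgeR and 0 by DESeq2). Of 25 chemokine and receptor genes 2 rose and 3 fell. The membrane-bound Cx3cl1 rose (log2 fold change 2.34, SE 0.66, adjusted p = 0.0395) and so did Cxcr4 (log2 fold change 1.70, SE 0.43, adjusted p = 0.0231). Ccl6 and Ccl24, which are made by resident macrophages, fell with Ccl5, at log2 fold changes of −0.81 and −1.10. Of the chemokine and receptor genes, 0 to 3 rose and 2 to 4 fell with 1 rat left out, and 2 rose and 1 fell by library size alone. The call on Cxcr4 was lost without control rat 5 (adjusted p of up to 0.0530). Ccl5 and Cx3cl1 were no longer called in 9 and 9 of the 12 fits that left out 1 rat, with adjusted p of up to 0.109. When counts were scaled by library size alone, Ccl5 and Ccl6 were not called.

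Cytokine pathways gave single genes. Il7, the survival factor of lymphocytes, was at 0.141 to 0.594 CPM (median 0.238) in control rats and at 1.30 to 2.02 CPM (median 1.42) in NASH-CH rats (log2 fold change 2.39, SE 0.30, adjusted p = 2.20e-04). The groups did not overlap. With Jak3 (0.93) it made 2 of 15 genes of the common γ chain pathway that rose. Among 14 genes of Toll-like signalling the endotoxin-binding protein Lbp (log2 fold change 2.02, SE 0.28, adjusted p = 4.65e-04) and the brake Irak3 (log2 fold change 0.63, SE 0.17, adjusted p = 0.0335) rose and 0 fell. No gene of 27 in the TNF, IL-1 and inflammasome list passed (by limma-voom, with 3 at an unadjusted p under 0.05, and 0 called by edgeR and 2 by DESeq2). In that list Tnf spread from 0 to 23.1 CPM (median 5.17) in control rats and from 1.46 to 10.5 CPM (median 3.61) in NASH-CH rats, and Il1b was at 3.07 to 82.6 CPM (median 41.7) against 10.1 to 36.5 CPM (median 10.5). For both genes the control range was wider than the NASH-CH range. Of 31 interferon-stimulated genes 0 rose and 2 fell, Ifi27 (log2 fold change −0.84, SE 0.17, adjusted p = 0.00626) and Usp18 (log2 fold change −0.93, SE 0.23, adjusted p = 0.0216). Called were 13.3% of common γ chain, 14.3% of Toll-like and 6.45% of interferon-stimulated genes, against 10.9% of all genes. Of the TNF, IL-1 and inflammasome genes, 0 to 1 rose and 0 fell with 1 rat left out, and 3 rose and 0 fell by library size alone. The call on Usp18 was lost without control rat 4 or without control rat 5 (adjusted p of up to 0.0524). Jak3 and Irak3 were no longer called in 7 and 7 of the 12 fits that left out 1 rat, with adjusted p of up to 0.0900. Scaling by library size alone ended the call on Usp18.

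No gene of the sinusoidal endothelium passed, and a few genes of vessels rose. Among 21 sinusoidal genes none passed (by limma-voom, with 3 at an unadjusted p under 0.05, and 1 called by edgeR and 2 by DESeq2), with a median log2 fold change of −0.16 that was 0.09 when scaled by library size alone and −0.014 without NASH-CH rat 5. Among 16 genes of continuous endothelium 2 rose. Vwf, von Willebrand factor, which sinusoids lack in health, was at 7.71 to 14.1 CPM (median 10.8) in control rats and at 15.6 to 38.8 CPM (median 22.9) in NASH-CH rats (log2 fold change 1.13, SE 0.20, adjusted p = 0.00368). No control rat reached the lowest NASH-CH rat. Ednrb, the endothelin B receptor, was at 3.63 to 11.6 CPM (median 6.21) against 12.9 to 36.5 CPM (median 17.6) (log2 fold change 1.47, SE 0.30, adjusted p = 0.00830). All 6 NASH-CH rats were higher than all 6 control rats. In the vasoactive list 3 of 29 genes rose and 1 fell: Ednrb, Ednra (0.75) and the angiotensin-converting enzyme Ace (1.09) rose, and the natriuretic peptide clearance receptor Npr3 fell (−1.07). Called were 12.5% of continuous endothelium genes and 13.8% of vasoactive genes, against 10.9% of all genes. Of the vasoactive genes, 1 to 5 rose and 0 to 1 fell with 1 rat left out (1 rose without control rats 1, 2, 3 or 5 or NASH-CH rats 2 or 6 and 5 rose without NASH-CH rat 5), and 5 rose and 1 fell by library size alone. Leaving out each rat in turn, the calls on Ednra, Ace and Npr3 were lost in 9, 7 and 6 of the 12 fits, with adjusted p of up to 0.0996.

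Markers of other cells were checked beside these groups. Of 20 cholangiocyte genes 1 rose, Anxa4 (log2 fold change 0.52, SE 0.15, adjusted p = 0.0437), and the list's median was 0.67. Without NASH-CH rat 5 that median was 0.33 and 3 of 16 tested rose. Over the 20 genes, edgeR called 4, DESeq2 6 and the fit with the replicate block 6 higher. Sox9 and Epcam had log2 fold changes of 1.0 and 0.61 (adjusted p = 0.361 and 0.399). Of 4 mesothelial genes Wt1 rose (log2 fold change 2.23, SE 0.46, adjusted p = 0.00824), at no more than 0.696 CPM in any rat. Neither of 2 adipocyte genes passed (by limma-voom, with 2 at an unadjusted p under 0.05, and 0 called by edgeR and 0 by DESeq2). Of 15 annexin and S100 genes 1 rose, again Anxa4. Called were 5.0% of cholangiocyte and 6.67% of annexin and S100 genes, below the 10.9% of all genes. Of 4 red cell genes none passed (by limma-voom, with 3 at an unadjusted p under 0.05, and 2 called by edgeR and 4 by DESeq2), and Hbb spread from 12.6 to 457 CPM (median 33.3) in control rats and from 3.88 to 25.2 CPM (median 15.8) in NASH-CH rats, and its highest control rat was control 5. The part of retained blood in any value was not tested. Of the annexin and S100 genes, 0 to 2 rose and 0 fell with 1 rat left out, and 4 rose and 0 fell by library size alone. Wt1 passed the count filter in 6 of the 12 fits that left out 1 rat and kept its call in these. The call on Anxa4 was lost in 10 of the 12 fits that left out 1 rat (adjusted p of up to 0.0839).

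Genes of plasma proteins rose or fell one by one. In the acute-phase list 3 of 22 genes rose and 2 fell. Beside Lcn2 and A2m, C-reactive protein, Crp, rose (log2 fold change 0.60, SE 0.15, adjusted p = 0.0210). Serpina3c, a serine protease inhibitor of a family with near-identical copies, fell (log2 fold change −1.09, SE 0.14, adjusted p = 3.11e-04), as did Ttr, transthyretin (log2 fold change −0.75, SE 0.20, adjusted p = 0.0261). Haptoglobin, Hp, had a log2 difference of 0.32 (adjusted p = 0.321) and albumin one of −0.61 (adjusted p = 0.0611). Of the acute-phase genes, 2 to 4 rose and 1 to 3 fell with 1 rat left out, and 8 rose and 2 fell by library size alone. The call on Crp was lost without control rat 1 or without control rat 4 (adjusted p of up to 0.0579). The call on Ttr was lost in 5 of the 12 fits that left out 1 rat (adjusted p of up to 0.0690).

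Of 30 complement genes 3 rose and 1 fell. C7, a late component that stromal cells make, was at 2.97 to 8.18 CPM (median 7.88) in control rats and at 18.6 to 67.0 CPM (median 27.4) in NASH-CH rats (log2 fold change 2.20, SE 0.34, adjusted p = 0.00128). There was no overlap of the groups. C4b (1.28) and C2 (0.40) rose and properdin, Cfp, fell (−0.55). In coagulation and fibrinolysis 4 of 28 rose and 0 fell. They included kininogen Kng1 (log2 fold change 1.51, SE 0.33, adjusted p = 0.0110), factor V, F5 (log2 fold change 0.83, SE 0.15, adjusted p = 0.00445), and Serpine2 (0.55). Of 24 genes of hepatocyte identity Ppara rose (log2 fold change 0.88, SE 0.24, adjusted p = 0.0347), and Apoa1 and Ttr fell. Called were 13.3% of complement, 14.3% of coagulation and fibrinolysis and 12.5% of hepatocyte identity genes, against 10.9% of all genes. Of the complement genes, 2 to 3 rose and 0 to 3 fell with 1 rat left out, and 13 rose and 0 fell by library size alone. C2, Cfp and Ppara were no longer called in 11, 9 and 9 of the 12 fits that left out 1 rat, with adjusted p of up to 0.104. Scaled by library size alone, Cfp was no longer called.

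Genes of cholesterol synthesis fell in part. Of 36 sterol genes tested, 1 rose and 12 fell, a share of 36.1% called against 10.9% of all genes, and the median log2 fold change was −0.53. The number that fell was 10 to 12 over the 12 fits that left out 1 rat, and 7 with scaling by library size alone. Mvd, the mevalonate diphosphate decarboxylase, was at 7.99 to 18.7 CPM (median 13.5) in control rats and at 1.82 to 7.40 CPM (median 3.77) in NASH-CH rats (log2 fold change −1.80, SE 0.34, adjusted p = 0.00527). No NASH-CH rat reached the lowest control rat. Acat2, the cytosolic thiolase that makes acetoacetyl-CoA, was at 9.90 to 27.9 CPM (median 18.4) against 2.31 to 8.23 CPM (median 4.89) (log2 fold change −1.83, SE 0.31, adjusted p = 0.00210). All 6 NASH-CH rats were lower than all 6 control rats. Pmvk, Fdps, Dhcr7, Tm7sf2 and Cyp51, which act between mevalonate and cholesterol, fell with log2 fold changes of −1.19, −1.21, −1.21, −1.30 and −1.05, and Hmgcs1 and Idi1, named for their promoters after the values were seen, fell at −1.40 and −1.67. The gene that rose was Abcg1, a cholesterol exporter (0.57), a name outside the naming rule. Sqle, the squalene epoxidase, had a log2 fold change of −0.80 (adjusted p = 0.275). Hmgcs1 and Abcg1 were no longer called in 9 and 8 of the 12 fits that left out 1 rat, with adjusted p of up to 0.107. When counts were scaled by library size alone, Cyp51, Hmgcs1 and Idi1 were not called.

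The promoters of 3 of these genes are printed because SREBP2 is known to act on sterol genes together with NF-Y, which binds the box CCAAT. Each is 300 bases of the GRCr8 assembly from RefSeq, 5′ to 3′ along the gene, from 250 bases before the start to 50 after it, and capitals mark CCAAT or its reverse complement ATTGG. They lie at chr19:67414925-67415224 on the minus strand for Mvd, chr17:66547475-66547774 on the minus strand for Idi1 and chr2:53382054-53382353 on the plus strand for Hmgcs1.
Mvd: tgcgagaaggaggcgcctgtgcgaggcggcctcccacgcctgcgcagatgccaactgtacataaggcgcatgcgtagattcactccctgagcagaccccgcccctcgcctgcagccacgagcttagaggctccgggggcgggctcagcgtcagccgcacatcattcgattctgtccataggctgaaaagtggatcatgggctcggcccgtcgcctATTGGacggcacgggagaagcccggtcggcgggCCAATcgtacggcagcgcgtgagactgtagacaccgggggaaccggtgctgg
Idi1: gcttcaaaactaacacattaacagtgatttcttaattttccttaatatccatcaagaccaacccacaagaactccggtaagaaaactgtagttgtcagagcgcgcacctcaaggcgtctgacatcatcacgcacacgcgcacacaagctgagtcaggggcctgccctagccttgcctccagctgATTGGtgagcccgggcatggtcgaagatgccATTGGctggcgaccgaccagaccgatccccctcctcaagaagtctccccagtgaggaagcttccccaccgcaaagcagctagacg
Hmgcs1: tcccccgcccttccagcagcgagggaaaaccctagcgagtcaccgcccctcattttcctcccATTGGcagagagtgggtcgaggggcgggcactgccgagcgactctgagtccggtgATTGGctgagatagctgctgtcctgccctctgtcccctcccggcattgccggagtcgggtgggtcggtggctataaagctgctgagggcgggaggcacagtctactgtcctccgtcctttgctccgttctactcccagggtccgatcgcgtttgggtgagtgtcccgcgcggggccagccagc

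Each of these windows holds 2 boxes. The printed genes were picked among those that fell and hold a box, so their windows cannot show how common the box is. Acat2, which fell more than any of them, is not printed. Of 26 sterol genes with a promoter in the table, 19 (73.1%) hold at least 1 box on either strand, against 37.7% of 27457 promoters of the same length. Among those of genes that fell the box was in 6 of 10, and among the others in 13 of 16. A match of letters is a description of the window, and binding was not measured.

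Some genes of fatty acid synthesis passed. Of 21 lipogenic genes 1 rose and 4 fell, which is 23.8% called against 10.9% of all genes, with a median of −0.61. Acss2, which makes cytosolic acetyl-CoA from acetate, was at 39.8 to 114 CPM (median 82.4) in control rats and at 25.6 to 43.2 CPM (median 29.3) in NASH-CH rats (log2 fold change −1.29, SE 0.25, adjusted p = 0.00547). Here 5 of 6 NASH-CH rats were below every control rat and the others overlapped. Gpam and Agpat2, the first steps of glycerolipid synthesis, and Me1 fell with log2 fold changes of −1.13, −0.61 and −1.10, while the stearoyl-CoA desaturase Scd2 rose (log2 fold change 1.08, SE 0.22, adjusted p = 0.00866). Scd, the main hepatic desaturase, had a log2 difference of −2.11 (adjusted p = 0.0574), and control rat 6 stood at 201 CPM and the other 5 control rats at 2208 or more. Fasn had one of −0.85 (adjusted p = 0.315). Of 11 genes of polyunsaturated fatty acid synthesis none passed (by limma-voom, with 3 at an unadjusted p under 0.05, and 1 called by edgeR and 2 by DESeq2). Of the lipogenic genes, 1 rose and 3 to 10 fell with 1 rat left out (10 fell without control rat 6), and 1 rose and 2 fell by library size alone. Scaling by library size alone ended the call on Agpat2.

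Lipid uptake and storage genes moved in both directions, 3 of 26 up and 2 down. Lpl was at 5.58 to 7.72 CPM (median 7.20) in control rats and at 14.9 to 107 CPM (median 25.3) in NASH-CH rats (log2 fold change 2.10, SE 0.42, adjusted p = 0.00689). The VLDL receptor Vldlr and the adipocyte and macrophage lipid-binding Fabp4 rose (2.01 and 1.47), and Mgll, which splits monoglycerides, fell with Fabp5 (−0.66). Plin2, the coat of lipid droplets, had a log2 fold change of −0.76 (adjusted p = 0.143). In fatty acid oxidation 1 of 34 rose, Ppara, and 2 fell, Eci2 (−0.57) and Etfb (−0.61). Of 20 apolipoprotein genes 2 fell, Apoa4 (log2 fold change −1.25, SE 0.29, adjusted p = 0.0160) and Apoa1 (log2 fold change −0.65, SE 0.15, adjusted p = 0.0130), and 0 rose. The share called was 8.824% in fatty acid oxidation and 10.0% among apolipoproteins, against 10.9% of all genes. The call on Vldlr was lost without control rat 1 or without control rat 3 (adjusted p of up to 0.0566). The call on Etfb was lost without control rat 1 or without control rat 5 (adjusted p of up to 0.0535). The call on Mgll was lost in 4 of the 12 fits that left out 1 rat (adjusted p of up to 0.0591). Scaled by library size alone, Mgll and Apoa1 were no longer called.

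Some bile acid genes passed. Of 27 tested, 2 rose and 2 fell, which is 14.8% called against 10.9% of all genes. Cyp7b1, the oxysterol hydroxylase of the alternative route, was at 3.38 to 9.21 CPM (median 4.18) in control rats and at 12.4 to 44.8 CPM (median 24.6) in NASH-CH rats (log2 fold change 2.23, SE 0.39, adjusted p = 0.00301). Every NASH-CH rat stood above every control rat. Baat, which conjugates bile acids, and the uptake carrier Slco1a1 fell (−0.54 and −0.63). Cyp7a1, the rate-limiting enzyme, spread from 138 to 362 CPM (median 242) in control rats and from 34.0 to 661 CPM (median 148) in NASH-CH rats (adjusted p = 0.468). Baat and Slco1a1 were no longer called in 10 and 8 of the 12 fits that left out 1 rat, with adjusted p of up to 0.119. When counts were scaled by library size alone, Baat and Slco1a1 were not called.

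Other metabolic groups held few calls. Of 33 genes of glucose metabolism none passed (by limma-voom, with 11 at an unadjusted p under 0.05, and 0 called by edgeR and 6 by DESeq2). Of 17 genes of urea and nitrogen handling 2 fell, Glul and Glud1 (log2 fold change −0.57, SE 0.16, adjusted p = 0.0359), and 0 rose. Of 43 genes of amino acid breakdown 0 rose and 4 fell: Csad, Gnmt, which consumes S-adenosylmethionine (log2 fold change −1.15, SE 0.28, adjusted p = 0.0181), Kynu of the tryptophan route (−0.87) and Pemt, which makes phosphatidylcholine (−0.77). Of 20 iron genes Slc39a14, an importer of iron and zinc, rose (log2 fold change 0.76, SE 0.15, adjusted p = 0.00692) and 1 fell, Hfe2, the hemojuvelin that sets hepcidin (−0.54), a name outside the naming rule. Of 10 thyroid hormone genes Serpina7 rose and Ttr fell, the carriers of thyroxine in plasma. None of 21 genes of the growth hormone and IGF axis passed (by limma-voom, with 7 at an unadjusted p under 0.05, and 0 called by edgeR and 3 by DESeq2). Of the glucose genes, 0 to 1 rose and 0 to 7 fell with 1 rat left out (7 fell without control rat 6), and 3 rose and 0 fell by library size alone. Of the amino acid breakdown genes, 0 to 1 rose and 4 to 6 fell with 1 rat left out, and 6 rose and 4 fell by library size alone. Of the iron genes, 1 to 2 rose and 0 to 1 fell with 1 rat left out, and 5 rose and 0 fell by library size alone. Leaving out each rat in turn, the calls on Glud1 and Hfe2 were lost in 8 and 5 of the 12 fits, with adjusted p of up to 0.0844. Scaling by library size alone ended the call on Glud1 and Hfe2.

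By their medians, respiratory chain genes of the nucleus and of the mitochondrion moved in opposite directions. Of 35 nuclear genes of complex I, 0 rose and 15 fell, and all 35 had a log2 fold change below 0, with a median of −0.45. Of 39 nuclear genes of complexes II to V, 0 rose and 21 fell, all 39 were below 0, and the median was −0.46. Groups did not overlap for 5 of the complex I genes and 10 of those of complexes II to V. In mean log2 CPM, control rats 2 and 6 lay within the NASH-CH range in both lists. They stood at 4.909 and 4.914 for complex I (NASH-CH 4.468 to 5.013). For complexes II to V they stood at 5.82 and 5.813 (NASH-CH 5.398 to 5.862). Uqcr10, a small subunit of complex III, was at 6.31 to 11.6 CPM (median 10.3) in control rats and at 3.24 to 5.76 CPM (median 4.93) in NASH-CH rats (log2 fold change −0.99, SE 0.21, adjusted p = 0.00836). The 2 groups were apart. Ndufb8 of complex I was at 30.7 to 49.6 CPM (median 41.8) against 16.5 to 28.7 CPM (median 23.0) (log2 fold change −0.80, SE 0.16, adjusted p = 0.00619). Every NASH-CH rat lay below every control rat. Uqcrq, Cox7a2, Cox8a, Cox7c, Cox6c, Ndufb2, Ndufab1 and Ndufb7 fell with log2 fold changes between −0.97 and −0.70. Of the complex I genes, 0 rose and 5 to 21 fell with 1 rat left out (5 fell without control rats 1, 4 or 5), and 0 rose and 5 fell by library size alone. Of the genes of complexes II to V, 0 rose and 9 to 24 fell with 1 rat left out (9 fell without control rats 1 or 5), and 0 rose and 14 fell by library size alone.

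Of 12 protein-coding genes of the mitochondrial genome, 5 rose and 0 fell, with a median of 0.41. Mt-nd2 was at 226 to 328 CPM (median 292) in control rats and at 633 to 854 CPM (median 670.3) in NASH-CH rats (log2 fold change 1.32, SE 0.12, adjusted p = 1.27e-05). No control rat reached the lowest NASH-CH rat. Mt-nd4, Mt-nd4l, Mt-nd1 and Mt-nd5 rose with log2 fold changes of 1.27, 1.22, 0.86 and 0.50. The mean log2 CPM of the 12 genes lay between 8.86 and 9.02 in control rats, and NASH-CH rat 6 lay within that range at 8.88 while the other 5 NASH-CH rats lay between 9.32 and 9.77. All 5 genes that rose encode subunits of complex I, and the cytochrome b gene Mt-cyb had a log2 fold change of 0.47 (adjusted p = 0.0718). The call on Mt-nd5 was lost in 7 of the 12 fits that left out 1 rat (adjusted p of up to 0.0723).

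The nuclear genes of the respiratory chain are short. In the shortest 3 deciles of gene span were 25 of the complex I genes and 32 of those of complexes II to V, where all genes tested had a median log2 fold change of −0.11. Both medians of the nuclear genes lay below that value. With scaling by library size alone, the medians were −0.19 and −0.20. Of 37 proteasome genes 7 fell with a median of −0.19, which was 0.063 with no gene called when scaled by library size alone. Of 20 genes of the small ribosomal subunit 2 fell with a median of −0.28 (−0.014 by library size alone), and of 24 of the large subunit 3 fell with a median of −0.25 (0.015). Called were 18.9% of proteasome, 10.0% of small subunit and 12.5% of large subunit genes, against 10.9% of all genes. Of the proteasome genes 25 were in the shortest 3 deciles, and of the ribosomal genes 20 and 23. The part of gene length in these 5 groups was not tested. Of the proteasome genes, 0 rose and 2 to 9 fell with 1 rat left out (2 fell without control rat 5), and 0 rose and 0 fell by library size alone. Of the small subunit genes, 0 rose and 0 to 9 fell with 1 rat left out (9 fell without control rat 2), and 0 rose and 0 fell by library size alone. Of the large subunit genes, 0 rose and 1 to 8 fell with 1 rat left out (1 fell without control rats 1, 3, 4 or 5 or NASH-CH rats 1, 2, 3, 4 or 6 and 8 fell without control rat 2), and 0 rose and 0 fell by library size alone.

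**Figure D4:**
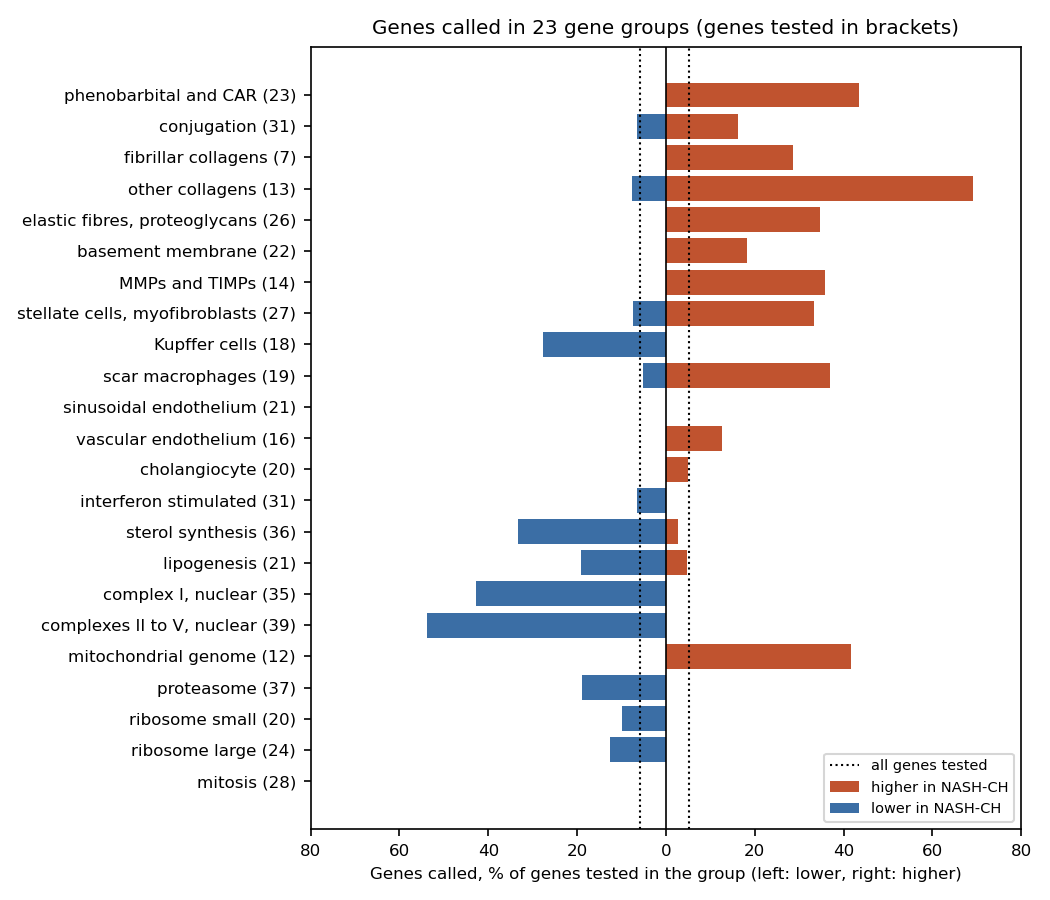
Share of tested genes called higher (right, orange) and lower (left, blue) in NASH-CH rats for 23 gene groups, in %, with the number tested in brackets and dotted lines at the shares of all genes, 5.14% and 5.74%. Complexes II to V show 21 of 39 genes lower and other collagens 9 of 13 higher.

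No gene of mitosis was called, and 1 rat stood apart from the others. Of 28 mitotic genes none passed (by limma-voom, with 1 at an unadjusted p under 0.05, and 0 called by edgeR and 0 by DESeq2), and the median was −0.92. Top2a, the topoisomerase of dividing cells, was at 1.73 to 12.6 CPM (median 4.91) in control rats and at 0.634 to 19.4 CPM (median 1.13) in NASH-CH rats (adjusted p = 0.276). NASH-CH rat 5 stood at 19.4 CPM, above all control rats, and the other 5 NASH-CH rats stood at 1.45 CPM or less, below all control rats. The list was scored in each rat as its mean log2 CPM, and rat 5 had 2.01 while the other NASH-CH rats lay between −1.48 and −1.0 and the control rats between −0.57 and 1.0. Without rat 5, 27 of these genes passed the count filter, of which 19 fell, and the median was −1.66. Of 31 genes of replication and the G1/S step Cdkn2c, an inhibitor of Cdk4 and Cdk6, rose (log2 fold change 0.95, SE 0.28, adjusted p = 0.0431) and 0 fell. That is 3.23% called, against 10.9% of all genes. Of the replication genes, 0 to 1 rose and 0 to 3 fell with 1 rat left out (3 fell without NASH-CH rat 5), and 1 rose and 0 fell by library size alone. The call on Cdkn2c was lost in 10 of the 12 fits that left out 1 rat (adjusted p of up to 0.0887).

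Of 22 p53 targets 0 rose and 3 fell, Sesn1 (log2 fold change −1.0, SE 0.19, adjusted p = 0.00537), Phlda3 (−0.75) and Ei24 (−0.34). Of 33 genes of endoplasmic reticulum stress 0 rose and 3 fell, Sdf2l1, a partner of the chaperone BiP (log2 fold change −1.43, SE 0.30, adjusted p = 0.00836), Atf5 (−0.65) and Pdia4 (−0.58). Of 20 clock genes Per1 rose (log2 fold change 0.83, SE 0.23, adjusted p = 0.0360), while Nr1d1 and Dbp had log2 fold changes of 1.94 and 1.61 (adjusted p = 0.137 and 0.481). The time of day of tissue collection is not given in the sources used here. The share called was 13.64% of p53 targets, 9.091% of endoplasmic reticulum stress genes and 5.0% of clock genes, against 10.9% of all genes. Of the p53 targets, 0 to 1 rose and 1 to 3 fell with 1 rat left out (1 fell without control rats 1, 3 or 5), and 1 rose and 1 fell by library size alone. Of the endoplasmic reticulum stress genes, 0 rose and 2 to 7 fell with 1 rat left out (7 fell without control rat 6), and 0 rose and 1 fell by library size alone. Phlda3, Ei24, Pdia4 and Per1 were no longer called in 4, 9, 7 and 8 of the 12 fits that left out 1 rat, with adjusted p of up to 0.105. Scaled by library size alone, Phlda3, Ei24, Atf5 and Pdia4 were no longer called.

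Genes listed for preneoplastic or tumour hepatocytes rose in 4 of 17 cases and fell in 0. Beside Lcn2 these were Akr1b10, an aldo-keto reductase (log2 fold change 1.88, SE 0.39, adjusted p = 0.00832), Gpc3, an oncofetal proteoglycan (log2 fold change 2.16, SE 0.56, adjusted p = 0.0252), and Spink1, a trypsin inhibitor (log2 fold change 2.56, SE 0.67, adjusted p = 0.0273). Akr1b10 was at 0.198 to 1.90 CPM (median 0.854) in control rats and at 2.05 to 4.29 CPM (median 2.86) in NASH-CH rats. All 6 NASH-CH rats were higher than all 6 control rats. Afp and Gstp1, the classical rat markers, had log2 fold changes of 0.38 and 0.49 (adjusted p = 0.131 and 0.0548). Of the genes of the preneoplastic list, 2 to 5 rose and 0 fell with 1 rat left out (2 rose without control rats 1, 3, 4 or 5), and 6 rose and 0 fell by library size alone. Gpc3 and Spink1 were no longer called in 4 and 6 of the 12 fits that left out 1 rat, with adjusted p of up to 0.0688.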

How the data were processed

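RNA was sequenced from the livers of 12 rats, 6 per group, grouped by the group in the sample labels. The authors trimmed the reads, aligned them to Rnor_6.0 with STAR (2-pass) and deposited RSEM expected counts (Ensembl annotation) for 32623 genes per rat, with no scaling by depth or length. Between 6.53% and 7.73% of the values were not whole, and all were rounded. Tool versions are not given in the sources used here. Counts were scaled by TMM (edgeR 4.0.16), filtered with filterByExpr to 12941 genes and tested by limma-voom (limma 3.58.1, R 4.3.3) with Benjamini-Hochberg adjustment over all of these genes and a threshold of 0.05. edgeR's quasi-likelihood test and DESeq2 1.42.0 were run as alternatives, and the 3 tests were tried on simulated data. Log2 CPM for scores used a prior count of 2. Promoters and gene spans came from RefSeq (GRCr8), and its coordinates were not mixed with those of Rnor_6.0. Intervals cover counting error only.

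The rats and the 66 gene lists, of which 1540 of 1606 entries could be matched by symbol, were chosen with earlier results of these data known. Genes were named by a rule: the 15 largest rises and the 15 largest falls with at least 10 CPM and no overlap of the groups, the key genes of each list, up to 8 further called genes per list by the size of the moderated statistic, up to 3 others of high level, and genes of measured proteins. Of these, a part is printed, and results on some genes are not reported here. The labels give no batch or date, and p-values measure the spread between these rats.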

Additional observations from a re-analysis of the deposited data

Results flagged for a closer look

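The level of each named gene was checked in each group of 6 rats for 1 rat far from the other 5, by the gap between that rat and its nearest neighbour as a share of the group's whole range (log2 CPM). Of 450 groups checked, 40 were marked, 8.89 in 100, where chance marks about 1 group in 20. NASH-CH rat 5 lay above the others of its group for Cd9, Cela1, Cnn2, Cxcr4, Lgals3, Lyz2, Mpo, Scd2 and Top2a, by 0.811, 0.775, 0.811, 0.786, 0.626, 0.656, 0.849, 0.721 and 0.765 of the range. NASH-CH rat 5 lay below the others of its group for Apoa4, Baat, Colec11, Cyp2c11, Cyp3a2, F5 and Ppara, by 0.706, 0.797, 0.670, 0.811, 0.732, 0.779 and 0.692 of the range. Control rat 5 lay above the others of its group for Cd68, Dkk3, Slco1a1 and Trem2, by 0.659, 0.630, 0.794 and 1.00 of the range. Control rat 5 lay below the others of its group for Atf5, by 0.716 of the range. Control rat 6 lay above the others of its group for Cyp2e1, by 0.675 of the range. Control rat 6 lay below the others of its group for Csad, Cyp2c11, Me1 and Scd, by 0.767, 0.806, 0.659 and 0.719 of the range. NASH-CH rat 4 lay above the others of its group for Gas6 and Sdf2l1, by 0.660 and 0.641 of the range. NASH-CH rat 4 lay below the others of its group for Gsta5, Serpine2 and Ugt2b10, by 0.790, 0.690 and 0.764 of the range. Control rat 3 lay above the others of its group for Lrat, by 0.626 of the range. Control rat 3 lay below the others of its group for Cyp2b2, by 0.652 of the range. Control rat 1 lay above the others of its group for Col3a1, by 0.632 of the range. Control rat 1 lay below the others of its group for Serpine2, by 0.685 of the range. NASH-CH rat 6 lay above the others of its group for Nr1d1 and the small RNA share, by 0.655 and 0.644 of the range. Control rat 4 lay below the others of its group for C7, by 0.887 of the range. NASH-CH rat 3 lay above the others of its group for Serpina3c, by 0.640 of the range. NASH-CH rat 1 lay above the others of its group for Tm7sf2, by 0.697 of the range. Trem2 in control rats rests on a single count, and Mpo was below the count filter. NASH-CH rat 5 accounts for 16 of the marks and is the rat that stood apart on the second principal component. No explanation of these values was tested.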

How the results depend on the processing

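The number of genes called, 1408, was 2380 by DESeq2, 3467 with no filter on low counts (1001 higher and 2466 lower), 2192 with all 18 rats in 1 fit, 513 at an adjusted p under 0.01 and 565 with an absolute log2 fold change of at least 1. With 1 rat left out it ranged from 882 (without control rat 4) to 1616 (without control rat 6), and it was 907, 908 and 922 without control rats 1, 3 and 5. Within 1.5 times of it lay 1735 by edgeR, 1400 with the size factors of DESeq2, 1903 by library size alone (1537 higher and 366 lower, with a median log2 fold change of all genes of 0.27), 1270 with at least 10 counts in every rat, 2090 with sample quality weights, 1127 without small non-coding RNA genes and 1499 with NASH-CH counts thinned to the control depth. With protein-coding genes alone, a setting chosen after seeing the data, 991 genes were called. Rats of the 2 groups share numbers. The correlations of same-numbered rats were low but all above 0 (mean 0.0724, 0.0232 to 0.120, over 0.1 in 1 of 6 pairs). Of the control rats, 3 of 6 matched their own number best. Whether same-numbered rats were handled together is not given in the sources used here. The pairing is not used in the main results. With the replicate block 1849 genes were called, of which 1279 were among the 1408, and 13 of the 182 named and called genes lost their call. The ratio of total counts stayed between 1.99 and 2.12 with 1 rat left out (exact sign-flip p = 0.03125 with the block). Without small non-coding, 7SK and SRP RNA it was 2.24. The ratio of the small RNA shares stayed between 0.518 and 0.586 and was 0.639 with 7SK and SRP RNA added (exact sign-flip p = 0.03125 with the block). Of the named and called genes 116 kept their call in each fit without 1 rat in which they were tested (5 were below the count filter in some of these fits) and 134 in each other alternative in which they were tested. Scaling by library size alone ended 28 calls and made 4. The sign of Cyp2c11, −0.063 as reported, became 0.13 with edgeR, 0.13 with DESeq2, 0.18 with scaling by library size alone, 0.24 with sample quality weights, 0.00077 with the fit without control rat 4 and 0.39 with the fit without NASH-CH rat 5, and with 1 rat left out it ran from −0.26 to 0.39. That of Tnf, 1.57, became −0.49 with edgeR, −0.47 with DESeq2 and −0.56 with the replicate block, and that of Fcgr2b, −0.24, became 0.0091 with scaling by library size alone. The cause was not tested in any of these. Control libraries held fewer counts than NASH-CH libraries, so genes of a few counts are less precise in control rats.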

Other observations

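The values below were picked after they were seen. Of 29 tested histone genes with a Hist symbol, 1 rose and 10 fell, and their median log2 fold change was −0.97. For Mpo, 36 of the 37 counts in NASH-CH rats lay in rat 5. Control rats varied widely in cytokine genes. Tnf stood at 10.2, 10.1 and 23.1 CPM in control rats 2, 3 and 6, and at 0.241, 0 and 0.287 CPM in control rats 1, 4 and 5. For the same rats in the same order, Il1b stood at 57.7, 45.3 and 82.6 CPM, and at 3.07, 38.0 and 3.44 CPM.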
